A study of Mus musculus with 8 samples.

Results

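The *Ube2* genes encode ubiquitin-conjugating enzymes (E2s), and they were followed here in mouse macrophages with and without inducible nitric oxide synthase (iNOS), at rest and after classical (M1) activation. Members were all genes whose symbol on the array begins with *Ube2*, with *Ube2c* left out. The rule gave 29 of the 18138 gene symbols on the array, carried by 44 of 25697 probes. It used names only and no measured value, but was chosen with earlier results of these data known.

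Bone marrow cells of female mice aged 8 weeks, given as C57bl/6J, were grown with GM-CSF (10 ng/ml) for 7 days. Total RNA was hybridised to Illumina bead arrays. The 8 arrays fall into 4 groups of 2, with WT and *iNOS*-/- cells each measured unstimulated and as M1 macrophages. Activation was 6 h with LPS at 200 ng/ml and IFN-γ at 10 ng/ml, and unstimulated cells had only the GM-CSF culture that all groups shared. The *iNOS*-/- mice carry the disrupted *Nos2* allele in all cells, not in macrophages alone. The paper's methods list them as a separate stock with a strain name other than C57bl/6J, so strain and genotype cannot be told apart. Nothing in the labels ties an array to a mouse, so p-values measure the spread between arrays, which may be technical.

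Ubiquitin is attached to proteins by a relay of enzymes. An activating enzyme (E1) loads ubiquitin onto the cysteine of an E2, and a ligase (E3) brings the loaded E2 to the substrate. The E2 often sets which kind of chain is built, a signal for degradation or a scaffold for signalling below Toll-like and interferon receptors. Some E2s carry a ubiquitin-like protein in place of ubiquitin: ISG15 for Ube2l6, NEDD8 for Ube2m and Ube2f, and FAT10 for Ube2z.

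Values are log2 of the probe intensity after rank-invariant scaling between arrays, with intensities under 1 set to 1. A probe was tested if its signal passed the scanner's detection p-value of 0.05 on at least 2 arrays, and was called when limma's Benjamini-Hochberg adjusted p over all 13868 tested probes was under 0.05. Of the 44 member probes, 35 were tested, and these stood for 25 of the 29 genes. The other 9 probes were detected on no array. They were the only probes of *Ube2d1*, *Ube2dnl*, *Ube2u* and *Ube2v2*, and further probes of members, such as *Ube2b* and *Ube2j2*, that another probe tested. Each gene is described by its brightest probe, and levels were not compared between probes. In RNA from whole cultures, fewer cells of a type and less RNA per cell cannot be told apart.

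The arrays detected between 11833 and 12673 probes each, and the arrays of a group correlated at 0.967 to 0.976 across probes. All 7 macrophage markers were detected on both arrays of every group. In *iNOS*-/- against WT M1 cells 2 of the 7 were called higher and 4 lower (all probes 24.2% and 24.3%). Markers of dendritic cells and of dividing cells moved between groups as well: their summed intensities lay at 1013–1014 and 708–800 in WT unstimulated arrays, 16272–16974 and 2184–2321 in WT M1, 13663–14586 and 2579–2612 in *iNOS*-/- unstimulated, and 35541–37104 and 868–881 in *iNOS*-/- M1. Granulocyte markers ran from 1128–1159 in WT unstimulated to 3934–4036 in *iNOS*-/- M1 arrays. The sums do not show each gene. Of 8 tested dendritic genes, 7 were called higher and 0 lower in the WT response, and 5 and 2 in the *iNOS*-/- response. In *iNOS*-/- against WT M1 cells 4 were higher and 2 lower, and for the difference between both responses 0 and 6. Of 9 dendritic, 8 granulocyte and 11 dividing-cell genes, 6, 3 and 8 were detected on both WT unstimulated arrays and 7, 6 and 8 on both *iNOS*-/- M1 arrays, and *Flt3*, *Mpo*, *Ccnb2* and *Bub1* were detected on too few arrays to be tested. Their part in the results below was not tested. *Nos2* itself, the disrupted gene, was not detected on unstimulated arrays and reached 7.25 ± 0.29 (SD, n = 2) in WT M1 and 7.6 ± 0.12 in *iNOS*-/- M1 arrays. That difference was not called (0.36, SE 0.32, adjusted p = 0.397, limma). Whether this probe lies in the deleted part of the gene is not given in the sources used here, so it does not check the labels, and genotypes below are those the arrays are labelled with.

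*Ube2l6* and *Ube2z* were called higher after activation in both genotypes, and no other member was. The RefSeq windows around their starts (GRCm38.p6, 250 bases before to 50 after, read in the direction of transcription) are shown for that reason. They were searched on both strands for the interferon-stimulated response element as GAAANNGAAA, the gamma-activated site as TTCNNNGAA and the GC box as GGGCGG. Capitals mark matches.
Ube2l6, chr2:84798578-84798877, plus strand: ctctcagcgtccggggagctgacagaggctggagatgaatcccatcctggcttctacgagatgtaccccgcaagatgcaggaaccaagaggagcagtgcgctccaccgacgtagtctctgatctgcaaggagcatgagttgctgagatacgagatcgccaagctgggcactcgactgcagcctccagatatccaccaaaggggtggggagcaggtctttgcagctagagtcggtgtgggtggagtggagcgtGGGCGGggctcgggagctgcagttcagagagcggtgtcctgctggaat
Ube2z, chr11:96065315-96065614, minus strand: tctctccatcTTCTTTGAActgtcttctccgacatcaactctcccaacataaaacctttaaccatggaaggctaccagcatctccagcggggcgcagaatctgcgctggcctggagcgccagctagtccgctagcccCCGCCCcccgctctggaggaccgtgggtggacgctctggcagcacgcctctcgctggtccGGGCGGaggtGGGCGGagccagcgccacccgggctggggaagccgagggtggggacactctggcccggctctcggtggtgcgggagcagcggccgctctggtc
The *Ube2l6* window held 1 GC box and neither interferon motif. The *Ube2z* window held a gamma-activated site at position -240 from the start and 3 GC boxes. Windows were given for 22 members, of which 1 (*Ube2dnl*) held the response element, 2 (*Ube2d3* and *Ube2z*) the gamma-activated site and 18 a GC box. Some genes have several windows: of the 32 windows of members, 1, 2 and 24 held the motifs (3.12%, 6.25% and 75%), and of all 32851 windows 3.44%, 8.3% and 35.7% did. A match is a run of letters and does not show that a factor binds there.

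Called members were mostly lower in the WT response and mostly higher in the *iNOS*-/- response, though the WT split rested on few arrays. In WT macrophages M1 activation raised 2 and lowered 10 of the 35 probes, where 20.2% of all tested probes were called higher and 14.9% lower. In *iNOS*-/- macrophages it raised 15 and lowered 1, against 26.2% and 23.8% of all probes. Without stimulation, 1 member probe was called higher in *iNOS*-/- than in WT cells and 9 lower (all probes 15.9% and 16.2%). After activation, 18 were higher and 2 lower in *iNOS*-/- cells (all probes 24.2% and 24.3%). For the difference between both responses, tested as an interaction, 17 probes were called higher in *iNOS*-/- and 1 lower (all probes 20.8% and 21.1%). The median log2 change of the 35 probes was -0.15 for the WT response, 0.51 for the *iNOS*-/- response, -0.1 and 0.53 for the genotypes before and after activation, and 0.74 for the interaction. Over all tested probes these medians were 0.07, 0.04, -0.02, 0 and 0.01. With 1 probe for each of the 25 genes the WT response had 2 genes higher and 5 lower and its median turned to 0.15 (0.04 over all genes), while the *iNOS*-/- response had 12 higher and 1 lower with a median of 0.51 (0.03 over all genes). The comparisons share arrays, so their counts are not independent of each other.

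**Figure D1:**
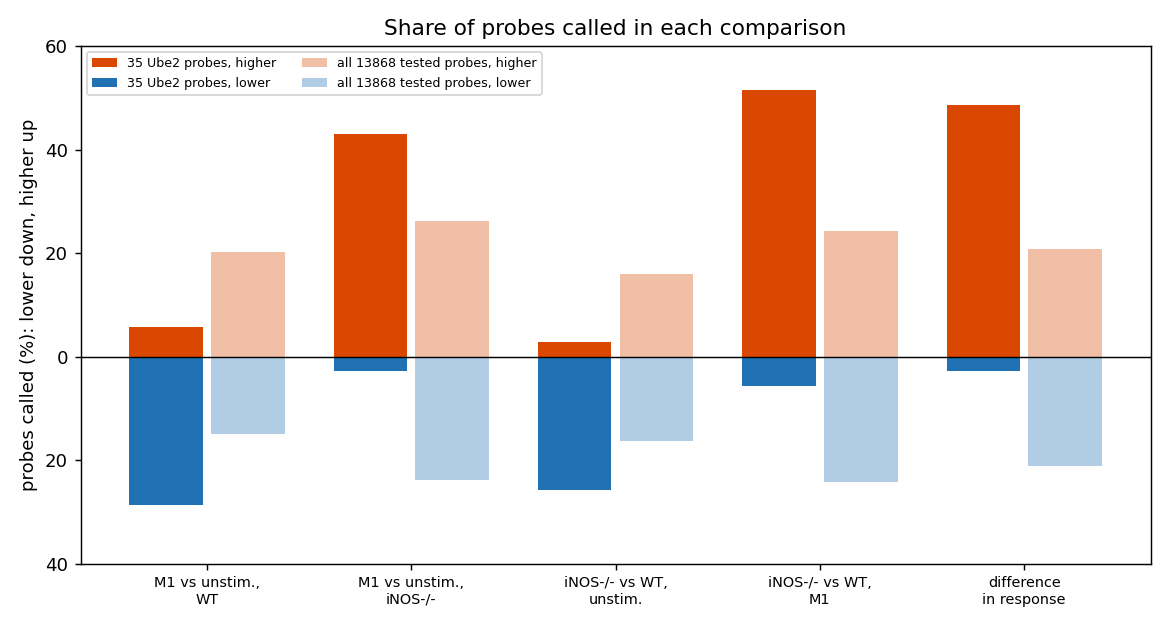
Percentage of probes called higher (upward bars) or lower (downward bars) in each of 5 comparisons, for the 35 tested Ube2 probes (dark) and all 13868 tested probes (light). Member bars point mostly down for the WT response and the unstimulated genotypes, and mostly up for the other 3 comparisons.

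Counts of WT calls rested on single arrays. Without WT unstimulated array 2 the WT response had 1 probe higher and 2 lower and the unstimulated genotype comparison 3 called, and without array 1 of that group the WT response had 2 higher and 3 lower, as it did when only WT arrays were fitted. The unstimulated comparison fell to 4 and 3 probes without *iNOS*-/- unstimulated array 1 and 2, and the M1 comparison to 12 without *iNOS*-/- M1 array 1. Under quantile normalization the *iNOS*-/- response had 13 probes higher and 3 lower, and under neqc (background correction from the detection p-values, then quantile normalization) 16 and 4.

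At the level of genes, 19 of the 25 were called in at least 1 comparison and 6, among them *Ube2m*, *Ube2e3*, *Ube2q1*, *Ube2r2* and *Ube2s*, in none. Of all 10163 tested gene symbols, 73.6% had a probe called in at least 1 comparison, so the share of members was near that of all genes. *Ube2q1* and *Ube2e3* were called in at least 1 comparison under quantile normalization and neqc, and *Ube2m* and *Ube2s* under neqc. The mean was highest in *iNOS*-/- M1 arrays for 15 genes, in WT unstimulated for 6, in WT M1 for 3 and in *iNOS*-/- unstimulated for 1. The log2 response was larger, or the fall smaller, in *iNOS*-/- than in WT macrophages for 18 of 25 genes. These counts, those of the highest group and those of joint calls that follow were not set against all tested genes. They do not show a trait of the family. *Ube2a* and *Ube2e2* were called lower after activation in WT and higher in *iNOS*-/- cells. A further 8 genes were called higher in *iNOS*-/- cells and not called in WT, and 3 (*Ube2g1*, *Ube2g2* and *Ube2l3*) were called lower in WT and not called in *iNOS*-/-. The responses themselves were not called different for *Ube2d2* (0.42, adjusted p = 0.0919, limma) and *Ube2j2* (0.52, adjusted p = 0.247) among the former. Nor were they for *Ube2g2* (0.5, adjusted p = 0.292) and *Ube2l3* (0.47, adjusted p = 0.0634) among the latter.

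**Figure D2:**
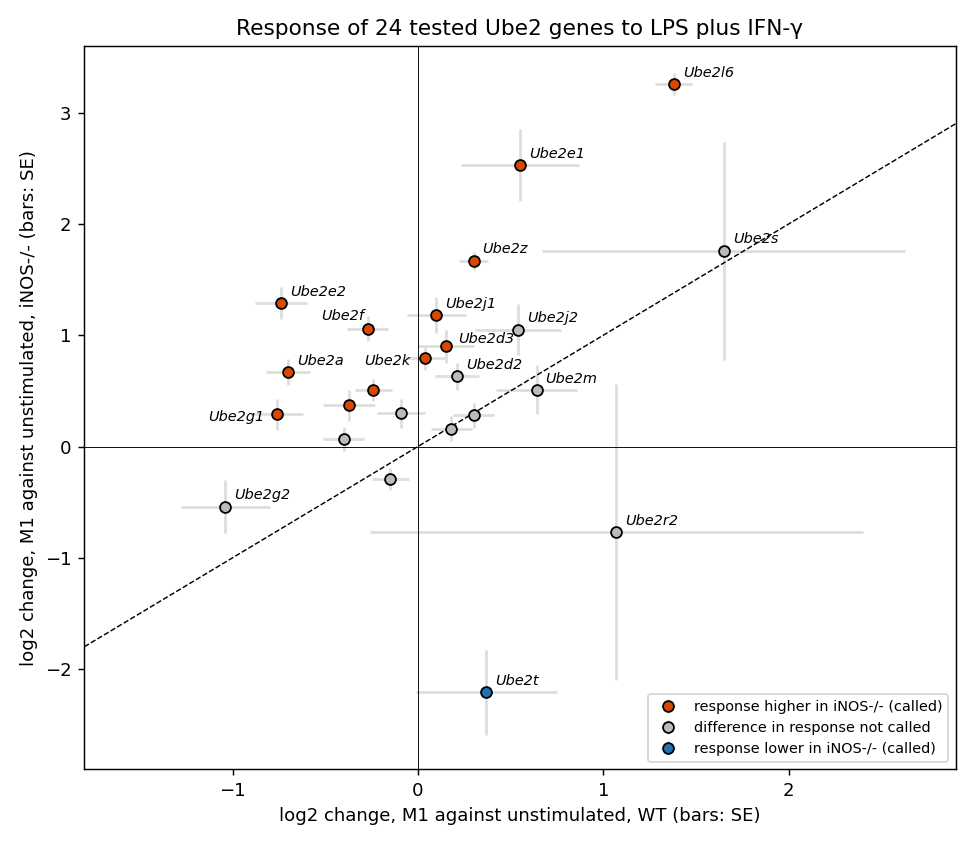
Log2 change after LPS plus IFN-γ in iNOS-/- (vertical axis) against WT macrophages (horizontal axis) for 24 tested Ube2 genes, with bars giving 1 standard error and the dashed line equal responses. Orange points have a response called higher in iNOS-/-, the blue point (Ube2t) lower, and Ube2l6 lies at 1.38 and 3.26.

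The E2s of ubiquitin-like proteins held the members with the smallest adjusted p after activation. *Ube2l6*, the E2 that passes ISG15 to proteins during interferon responses, read 5.44 and 5.42 in WT unstimulated arrays and 6.78 and 6.82 in WT M1. In *iNOS*-/- cells it read 5.2 and 5.41 unstimulated and 8.6 and 8.53 after activation. *iNOS*-/- M1 arrays were at the top and WT M1 arrays next, both clear of the unstimulated arrays, whose genotypes lay close together. The increase was 2.59-fold in WT (log2 1.38, SE 0.1, adjusted p = 0.00065, limma) and 9.58-fold in *iNOS*-/- (3.26, SE 0.1, adjusted p = 3.02e-05). M1 cells of both genotypes differed 3.39-fold (1.76, adjusted p = 0.000263) and unstimulated cells by -0.12 (adjusted p = 0.407). The responses differed by 1.89 (SE 0.14, adjusted p = 0.000734).

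*Ube2z*, the E2 loaded by Uba6 with FAT10 or ubiquitin, read 5.25 and 5.31 in WT unstimulated, 5.62 and 5.54 in WT M1, 5.05 and 5.06 in *iNOS*-/- unstimulated and 6.73 and 6.72 in *iNOS*-/- M1 arrays. Its *iNOS*-/- M1 values stood clear of all others. The rise was 3.19-fold in *iNOS*-/- cells (1.67, SE 0.08, adjusted p = 8.19e-05, limma) and 1.23-fold in WT (0.3, adjusted p = 0.0361), and M1 cells differed 2.21-fold between genotypes (1.14, adjusted p = 0.00039). The WT rise was not called when any 1 of the 8 arrays was left out (0.26 to 0.34, highest adjusted p = 0.145), nor under quantile normalization (0.14, adjusted p = 0.204) or neqc (0.1, adjusted p = 0.382). The responses differed by 1.37 (SE 0.11, adjusted p = 0.000914).

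*Ube2f*, which serves NEDD8 transfer to the cullin Cul5, was measured by 3 probes. The brightest read 9.49 and 9.42 in WT unstimulated, 9.08 and 9.3 in WT M1, 9.3 and 9.19 in *iNOS*-/- unstimulated and 10.35 and 10.26 in *iNOS*-/- M1 arrays. All 3 probes were called higher with activation in *iNOS*-/- cells, by 1.04 to 1.18, and higher in *iNOS*-/- than in WT M1 cells, by 0.75 to 1.34. In WT they disagreed: the probe at transcript base 1150 fell by 0.36 (adjusted p = 0.0257, limma), a call lost when any WT array was left out (highest adjusted p = 0.104), while the others read -0.27 and 0.29 and were not called. *Ube2m*, the NEDD8 E2 for the other cullins, read 7.31 ± 0.28, 7.96 ± 0.07, 7.47 ± 0.04 and 7.98 ± 0.39 in the same order of groups and was called in no comparison, but under neqc it was higher in the WT response (0.53, adjusted p = 0.0211). For *Ube2m* the difference between M1 genotypes was 0.02 with an SE of 0.22. Of the 5 tested genes of this role, 2 were called higher in the WT response and 3 in the *iNOS*-/- response, and the same number in M1 *iNOS*-/- against WT. Of all tested probes, 20.2%, 26.2% and 24.2% were called higher in these comparisons.

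**Figure D3:**
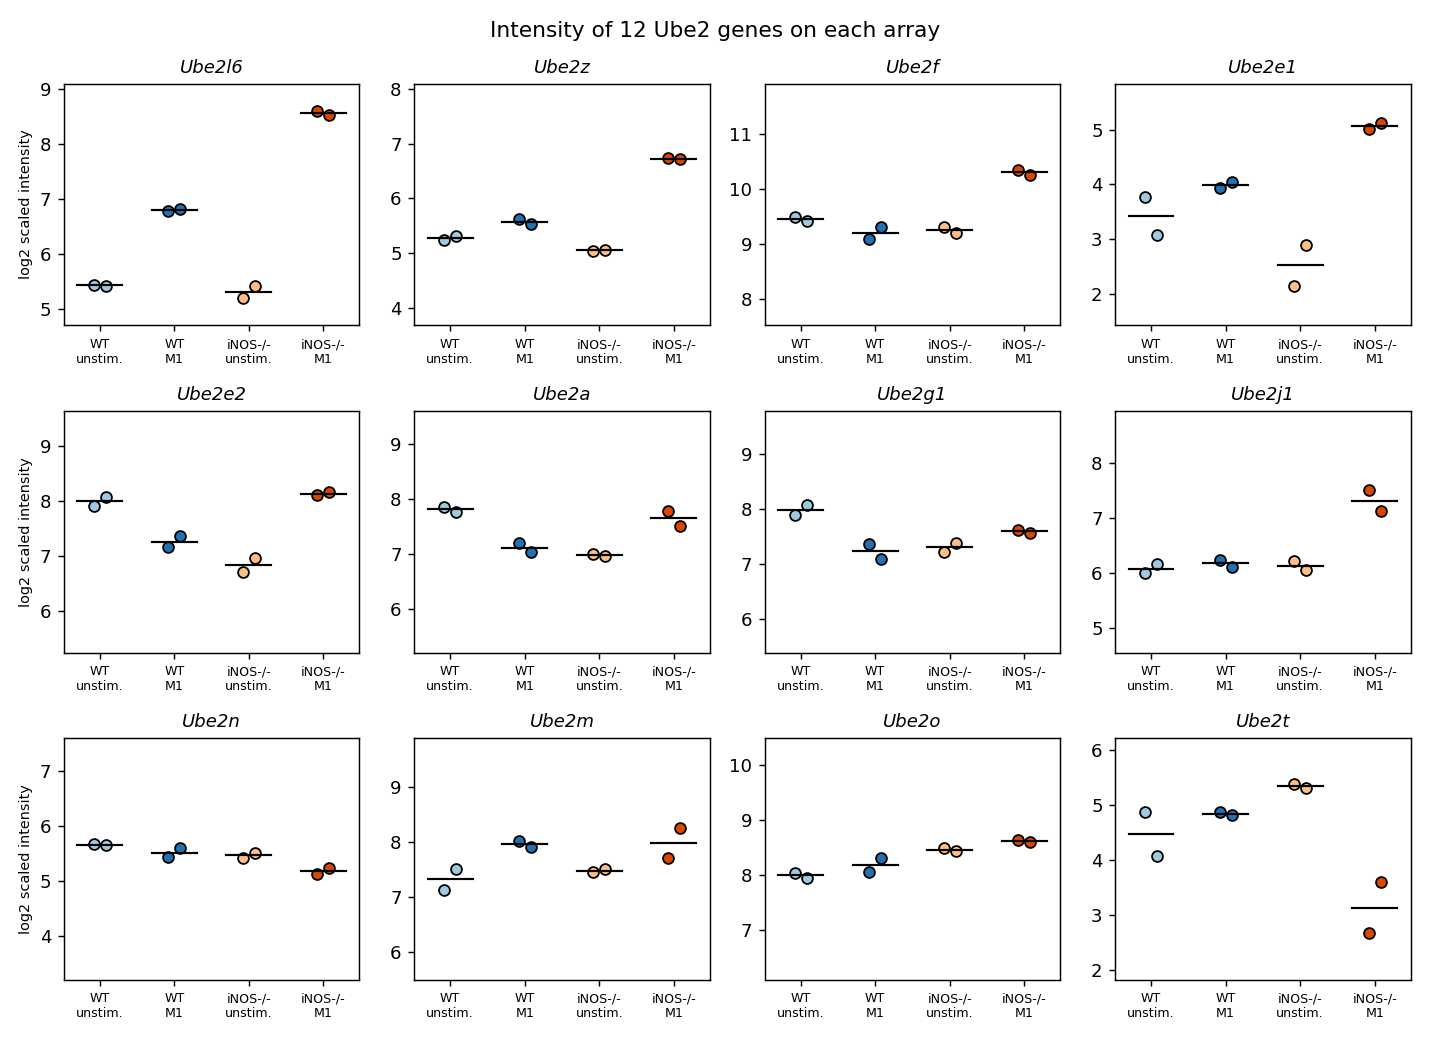
Log2 scaled intensity of 12 Ube2 genes on each of the 8 arrays (points) with the group mean (line); unstim. is unstimulated, and every panel spans the same log2 range. Ube2l6, Ube2z, Ube2f and Ube2j1 are highest on both iNOS-/- M1 arrays, and Ube2t is lowest there.

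*Ube2n* builds lysine-63-linked chains with its partners Ube2v1 and Ube2v2, the chains on which Traf6 signals. Its brightest probe read 5.67 and 5.64 in WT unstimulated, 5.42 and 5.59 in WT M1, 5.41 and 5.51 in *iNOS*-/- unstimulated and 5.12 and 5.22 in *iNOS*-/- M1 arrays. It was lower in *iNOS*-/- than in WT M1 cells by a log2 change of -0.34 (SE 0.1, adjusted p = 0.0383, limma) and was called in no other comparison. The second probe, at base 1356, read 0.9 higher there and was not called (adjusted p = 0.104). The call was lost when any array but WT M1 array 1 was left out (highest adjusted p = 0.149, without WT M1 array 2), under quantile normalization (-0.17, adjusted p = 0.247) and under neqc (-0.12, adjusted p = 0.329). *Ube2v2* was listed at the floor on all arrays, and *Ube2v1* was not analysed here.

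The tested E2s that work with many ligases were *Ube2d2*, *Ube2d3*, *Ube2e1*, *Ube2e2*, *Ube2e3* and *Ube2l3*. With activation, 2 of these genes were called lower in WT and 4 higher in *iNOS*-/- cells. Of all tested probes, 14.9% were called lower in WT and 26.2% higher in *iNOS*-/- cells. *Ube2e2* read 7.91 and 8.08 in WT unstimulated and fell to 7.16 and 7.36 in WT M1, and it read 6.71 and 6.97 in *iNOS*-/- unstimulated and 8.1 and 8.17 in *iNOS*-/- M1 arrays. WT unstimulated and *iNOS*-/- M1 values were close together, with both other groups below them. Its change was -0.74 in WT (SE 0.14, adjusted p = 0.0126, limma) and 1.29 in *iNOS*-/- (adjusted p = 0.00104), and the difference of 2.03 (SE 0.19) had an adjusted p of 0.00139. The WT fall was not called without WT unstimulated array 2 (-0.65, adjusted p = 0.0659) or WT M1 array 1 (-0.64, adjusted p = 0.0616). Before activation *Ube2e2* was lower in *iNOS*-/- cells by a log2 change of -1.15 (adjusted p = 0.0032), and after it higher by 0.87 (adjusted p = 0.0048).

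*Ube2e1*, a close relative, lay nearer to background, with values of 3.78 and 3.08, 3.93 and 4.04, 2.16 and 2.9, and 5.01 and 5.11 in WT unstimulated and M1 and *iNOS*-/- unstimulated and M1 arrays. One *iNOS*-/- unstimulated array did not detect it. It rose in *iNOS*-/- cells by 2.53 on the log2 scale (SE 0.32, adjusted p = 0.002, limma), or by 1.06 with a floor of 16, where it was also called, and was 2.11-fold higher in *iNOS*-/- than in WT M1 cells (adjusted p = 0.041). The latter call and the interaction (1.98, adjusted p = 0.0206) were lost when either WT M1 or either *iNOS*-/- M1 array was left out (1.02 to 1.14 and 1.92 to 2.04, highest adjusted p = 0.141 and 0.064), and the interaction was 1.04 with a floor of 16. *Ube2d2* and *Ube2d3*, which pair with most RING ligases, rose in *iNOS*-/- cells by 0.63 and 0.9 (adjusted p = 0.00716 and 0.00471) and read 0.21 and 0.15 in WT, not called. For *Ube2d3* the responses differed by 0.74 (adjusted p = 0.0361), a call lost without either WT unstimulated array, WT M1 array 2, *iNOS*-/- unstimulated array 2 or either *iNOS*-/- M1 array (0.59 to 0.81, highest adjusted p = 0.0971).

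*Ube2l3*, the E2 of HECT ligases, Parkin and the linear-chain complex, was called in the WT response and not in the *iNOS*-/- response. The difference between both responses was not called for either of its probes (0.47 and 0.4, adjusted p = 0.0634 and 0.0531, limma). Its brightest probe read 10.96 and 11.1 in WT unstimulated and between 10.54 and 10.74 on the other 6 arrays. Both of its probes were called lower with activation in WT (-0.4 and -0.33, adjusted p = 0.0426 and 0.0409, limma) and lower in *iNOS*-/- than in WT unstimulated cells (-0.43 and -0.52, adjusted p = 0.038 and 0.0108), and neither was called in *iNOS*-/- against WT M1 cells. Both WT falls were lost when any 1 of the 8 arrays was left out (-0.32 to -0.48 and -0.26 to -0.4, highest adjusted p = 0.168), as was the unstimulated difference of the brightest probe (-0.36 to -0.49, highest adjusted p = 0.157), which was -0.26 and not called under quantile normalization (adjusted p = 0.111). The unstimulated call of the other probe was lost without WT unstimulated array 2 or *iNOS*-/- unstimulated array 2 (-0.49 and -0.48, adjusted p = 0.0589 and 0.061). The *iNOS*-/- response of this gene turned with the scaling, from 0.07 (adjusted p = 0.639) to -0.47 under quantile normalization (adjusted p = 0.0126) and neqc (adjusted p = 0.00256), as did the M1 difference, from 0.04 to -0.38 under both (adjusted p = 0.0287 and 0.00956). *Ube2e3* stayed between 6.45 and 7.03 on all arrays and was not called, but its M1 difference of 0.37 was 0.43 and called under quantile normalization (adjusted p = 0.0345).

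Among the E2s of the endoplasmic reticulum and of degradative chains, *Ube2j1* (membrane-anchored, used with the ligase Syvn1), *Ube2j2* and *Ube2k* (a builder of lysine-48 chains) were called higher in *iNOS*-/- M1 cells than in unstimulated *iNOS*-/- cells and than in WT M1 cells. *Ube2j1* read between 6 and 6.24 on 6 arrays and 7.5 and 7.12 on the *iNOS*-/- M1 arrays. It rose by 1.18 in *iNOS*-/- cells (SE 0.16, adjusted p = 0.00262, limma) and was 2.2-fold higher than in WT M1 cells (adjusted p = 0.00342). *Ube2k* read 9.49 to 9.75 on 6 arrays and 10.39 and 10.48 on the *iNOS*-/- M1 arrays, a rise of 0.8 (adjusted p = 0.00293). The rise was 0.3 under quantile normalization and 0.29 under neqc, and not called (adjusted p = 0.103 and 0.0501). The second *Ube2k* probe, at base 325, read 1.3 in the *iNOS*-/- response, not called (adjusted p = 0.0579). It was called higher in *iNOS*-/- than in WT M1 cells (1.9, adjusted p = 0.0182), but not without either *iNOS*-/- M1 array (1.88 and 1.92). *Ube2j2* rose by 1.05 (adjusted p = 0.0126), from 4.3 and 4.19 to 5.52 and 5.08, and was not called without *iNOS*-/- unstimulated array 2 (1, adjusted p = 0.0631) or M1 array 1 (0.83, adjusted p = 0.0526). Its M1 difference (0.83, adjusted p = 0.0304) was lost without either WT M1 array, either *iNOS*-/- unstimulated array or *iNOS*-/- M1 array 1 (0.61 to 0.9, highest adjusted p = 0.12). The interaction of *Ube2j1* (1.08, adjusted p = 0.0156) was not called without WT unstimulated array 2, WT M1 array 2 or *iNOS*-/- unstimulated array 2 (1 to 1.01, highest adjusted p = 0.0541).

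*Ube2g1* and *Ube2g2*, E2s of endoplasmic reticulum-associated degradation, were the members of this role called lower in WT. The brightest *Ube2g1* probe read 7.89 and 8.08 in WT unstimulated, 7.37 and 7.09 in WT M1, 7.22 and 7.38 in *iNOS*-/- unstimulated and 7.62 and 7.57 in *iNOS*-/- M1 arrays. All 3 of its probes were called lower in the WT response (-0.59 to -0.99) and lower in *iNOS*-/- than in WT unstimulated cells (-0.5 to -1.14), and all 3 interactions were called (0.64 to 1.63). The probe at base 696 was also called higher in the *iNOS*-/- response (0.64, adjusted p = 0.00827, limma) and in *iNOS*-/- against WT M1 (0.5, adjusted p = 0.0219), where the other probes were not. The latter call was lost without any 1 of the 4 M1 arrays (0.46 to 0.53, highest adjusted p = 0.0906). The calls of the probe at base 1491 were the least firm: its interaction (0.64) was lost without any array but WT M1 array 1 (highest adjusted p = 0.127), its unstimulated difference (-0.5) without any unstimulated or *iNOS*-/- M1 array (highest adjusted p = 0.168), and its WT fall (-0.59) without either WT unstimulated array or WT M1 array 2 (highest adjusted p = 0.108). For the brightest probe the WT fall was lost without WT unstimulated array 2 (-0.66, adjusted p = 0.061). Its unstimulated genotype difference was lost without that array (-0.6, adjusted p = 0.0823) or either *iNOS*-/- unstimulated array (highest adjusted p = 0.0866).

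*Ube2g2* was near background, at 3.97 and 4.01 in WT unstimulated and 2.62 and 3.28 in WT M1 arrays, where 1 array did not detect it. Its fall to 0.487 of the unstimulated level (-1.04, SE 0.24, adjusted p = 0.0244, limma) was lost without either WT unstimulated array or WT M1 array 1 (-0.71 to -1.06, highest adjusted p = 0.098). With a floor of 16 its change was 0. *Ube2r2*, an E2 of the Cdc34 type, was detected on 4 of 8 arrays, 1 in each group, and gave no called difference.

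*Ube2a* and *Ube2b*, the Rad6 homologues that ubiquitinate PCNA and histone H2B, were grouped with *Ube2s* and *Ube2t* as E2s of the cell cycle and DNA repair. *Ube2a* read 7.86 and 7.77 in WT unstimulated, 7.2 and 7.04 in WT M1, 7.01 and 6.96 in *iNOS*-/- unstimulated and 7.79 and 7.52 in *iNOS*-/- M1 arrays. Like *Ube2e2*, it was called lower with activation in WT (-0.7, adjusted p = 0.0106, limma) and higher in *iNOS*-/- (0.67, adjusted p = 0.00753), with a difference of 1.37 (SE 0.17, adjusted p = 0.00317). Genotypes differed by -0.83 before (adjusted p = 0.00636) and 0.53 after activation (adjusted p = 0.0179). The WT fall was lost without WT unstimulated array 1 (-0.66, adjusted p = 0.0569) or WT M1 array 2 (-0.62, adjusted p = 0.0549), and the M1 difference without WT M1 array 2 (0.46, adjusted p = 0.0824) or *iNOS*-/- M1 array 1 (0.4, adjusted p = 0.062). *Ube2b* rose by 0.51 in *iNOS*-/- cells (adjusted p = 0.00788) and read -0.24 in WT, not called, and the rise was 0.13 under quantile normalization (adjusted p = 0.299).

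*Ube2t*, the E2 of the Fanconi anaemia ligase Fancl, was the only member called lower with activation in *iNOS*-/- cells. It read 4.87 and 4.08 in WT unstimulated, 4.87 and 4.83 in WT M1, 5.38 and 5.31 in *iNOS*-/- unstimulated and 2.67 and 3.6 in *iNOS*-/- M1 arrays, where 1 of 2 detected it. *iNOS*-/- M1 values lay below all others. Its level fell to 0.216 of that in unstimulated cells (log2 change -2.21, SE 0.38, adjusted p = 0.00599, limma), a change that was -1.35 with a floor of 16 and -1.19 under neqc. In *iNOS*-/- M1 cells it was 0.305 of that in WT M1 cells (-1.71, adjusted p = 0.016). The M1 difference was lost without either WT M1 array (-1.69 and -1.73, adjusted p = 0.0676 and 0.0643) and with a floor of 16 (-0.85, adjusted p = 0.0597), and the interaction (-2.58, adjusted p = 0.015) without *iNOS*-/- unstimulated array 1 (-2.55, adjusted p = 0.0514). Of 9 tested markers of dividing cells (cyclins, mitotic kinases and the like), 8 were called lower with activation in *iNOS*-/- cells and 8 lower in *iNOS*-/- than in WT M1 cells. In the WT response, and in unstimulated *iNOS*-/- against WT cells, 8 were called higher. There *Ube2t* read 0.37 and 0.87 and was not called (adjusted p = 0.496 and 0.147, limma). Under neqc its unstimulated difference was 0.49 and called (adjusted p = 0.0275). The part of these markers in the change of *Ube2t* was not tested. *Ube2s*, the chain-extending E2 of the anaphase-promoting complex, lay near background, with means of 1.48, 3.14, 2.77 and 4.53 and SEs of 0.98 on its changes, and was not called. Under neqc it was called higher in the *iNOS*-/- response (0.77, adjusted p = 0.00243) and in *iNOS*-/- against WT M1 (0.73, adjusted p = 0.00365).

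The members without a common role were *Ube2o*, *Ube2q1* and *Ube2q2*. *Ube2o*, a large enzyme that acts as both E2 and ligase, read 8.05 and 7.95 in WT unstimulated, 8.06 and 8.31 in WT M1, 8.49 and 8.44 in *iNOS*-/- unstimulated and 8.65 and 8.6 in *iNOS*-/- M1 arrays. It was higher in *iNOS*-/- than in WT cells by 0.46 before (adjusted p = 0.0305, limma) and 0.44 after activation (adjusted p = 0.0255), and its response differed by -0.02 (SE 0.16). No other member was called higher in unstimulated *iNOS*-/- cells. The call before activation was lost without any 1 array of 6 (both WT unstimulated and all *iNOS*-/- arrays; 0.41 to 0.52, highest adjusted p = 0.131), and that after it without WT M1 array 1 or either *iNOS*-/- M1 array (0.32 to 0.47, highest adjusted p = 0.0934).

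*Ube2q2* showed probes that disagreed in part. The brightest was lower in *iNOS*-/- than in WT unstimulated cells (-0.66, adjusted p = 0.0185, limma), as was the probe at base 2538 (-0.91, adjusted p = 0.0214). Only the latter was called for the WT response (-1.12, adjusted p = 0.0104) and for *iNOS*-/- against WT M1 (0.68, adjusted p = 0.0369), where the brightest read -0.37 and 0.07. The M1 call of that probe was lost when any array but WT M1 array 1 was left out (0.4 to 0.7, highest adjusted p = 0.117), its unstimulated call without any 1 unstimulated array (-0.81 to -1.01, highest adjusted p = 0.101), and its WT call without either WT unstimulated array (-1.12, highest adjusted p = 0.0517). For the brightest probe the unstimulated call was lost without WT unstimulated array 2 or either *iNOS*-/- unstimulated array (-0.54 to -0.75, highest adjusted p = 0.0931). *Ube2q1* read 10.27 to 10.59 in group means and was not called, but under quantile normalization it was lower in *iNOS*-/- than in WT M1 cells (-0.45, adjusted p = 0.0131).

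**Figure D4:**
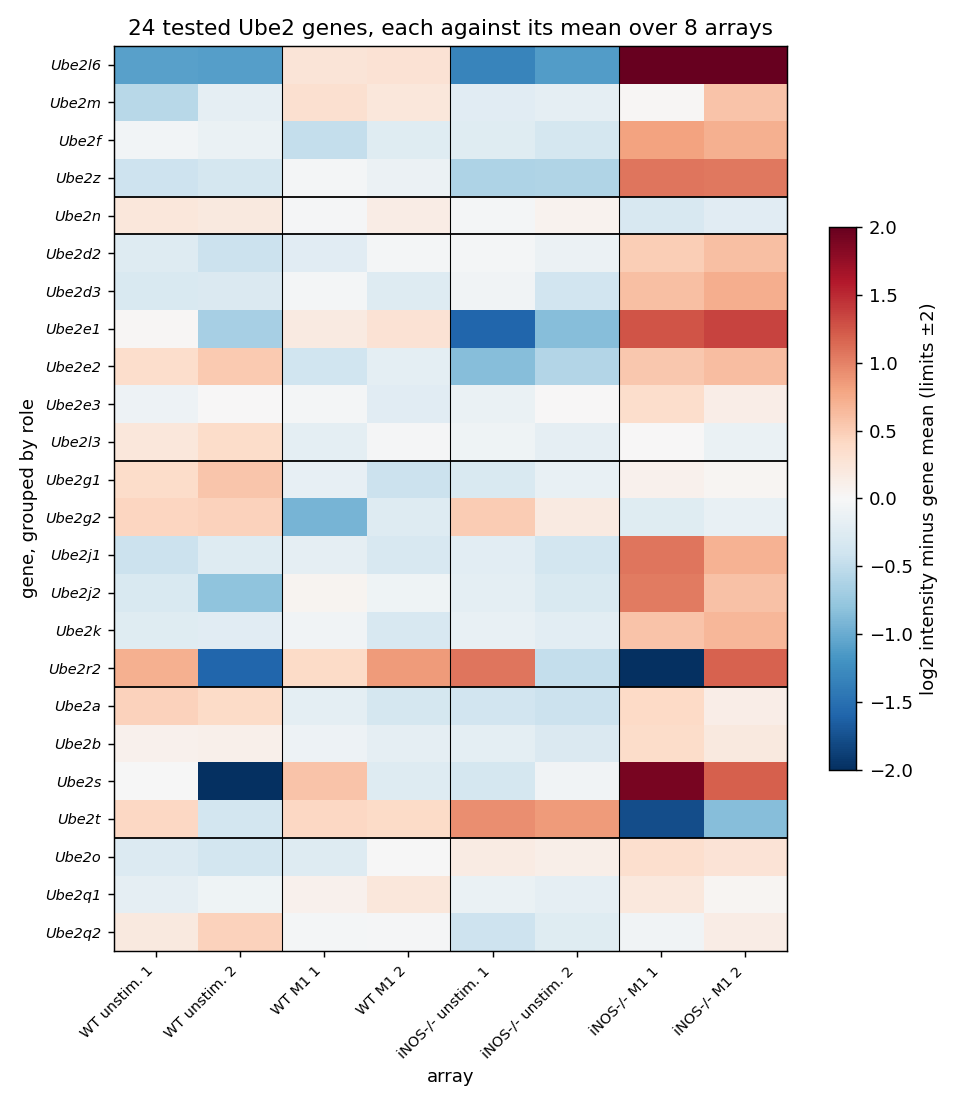
Log2 intensity of each of 24 tested Ube2 genes on the 8 arrays minus that gene's mean over all arrays; red is above and blue below the mean, and horizontal lines separate roles. Both iNOS-/- M1 columns are red for most genes, and blue for Ube2t, Ube2n and Ube2g2.

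Other genes of the relay, taken from 8 lists of E1s, modifiers, ligases and their partners, were read beside the E2s. Of 66 tested, 14 were called higher and 9 lower in the WT response, and 30 higher and 6 lower in the *iNOS*-/- response. In percent these are 21.2% and 13.6% in WT, near the 20.2% and 14.9% of all probes, and 45.5% and 9.09% in *iNOS*-/- cells, where all probes gave 26.2% and 23.8%. The counts of single lists below stand against the same shares of all probes. For *iNOS*-/- against WT the counts called higher and lower were 8 and 4 unstimulated (12.1% and 6.06%, all probes 15.9% and 16.2%). In M1 cells they were 31 and 8 (47% and 12.1%, all probes 24.2% and 24.3%). For the interaction they were 25 and 7 (37.9% and 10.6%, all probes 20.8% and 21.1%).

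Of the genes that work with *Ube2l6*, *Isg15*, *Uba7* and *Usp18* were called higher after activation in both genotypes. *Isg15*, the modifier, whose probe is listed under LOC100038882, had means of 5.83, 10.97, 7.66 and 13.25 in WT unstimulated and M1 and *iNOS*-/- unstimulated and M1 arrays. It rose by 5.14 in WT and 5.59 in *iNOS*-/- cells (adjusted p = 3.59e-05 and 1.95e-05, limma), and the responses were not called different (0.45, adjusted p = 0.13). *Uba7*, the ISG15 E1, rose by 1.19 and 2.01, and *Usp18*, the protease that removes ISG15, by 2.82 and 4.06. Both interactions were called (0.82 and 1.24, adjusted p = 0.00477 and 0.00122). That of *Uba7* was not called under quantile normalization (0.26, adjusted p = 0.136) or neqc (0.28, adjusted p = 0.109). *Trim25*, a ligase for ISG15, was called higher in the *iNOS*-/- response (1.86, adjusted p = 0.000546), and its WT value of 0.39 was not called. Its interaction of 1.46 had an adjusted p of 0.00617.

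Of the other modifiers and E1s, *Ubd*, the gene of FAT10, was not detected on unstimulated arrays and was at least 7.44-fold higher in WT M1 and at least 41.3-fold higher in *iNOS*-/- M1 than unstimulated (adjusted p = 0.00557 and 0.000439, limma). Each bound sets the M1 mean against the lowest signal detected on the unstimulated arrays, or the probe's own signal where higher. *Uba1*, a ubiquitin E1, rose by 1.64 in WT and 0.55 in *iNOS*-/- cells, and that difference in response was called (-1.09, adjusted p = 0.00213). *Atg7*, the E1 of autophagy, fell by 2.07 in *iNOS*-/- cells (adjusted p = 0.00378) and read -0.11 in WT.

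Of 14 genes of lysine-63 and linear chain signalling, 10 were called in the *iNOS*-/- response and 6 in the WT response, all of them higher. *Tnfaip3* (A20, a brake on NF-κB) rose by 2.2 in WT and 4.02 in *iNOS*-/- cells, and *Birc3* (cIAP2) by 1.69 and 2.53, the WT rise of *Birc3* not called without WT unstimulated array 2 or either WT M1 array (1.42 to 1.71, highest adjusted p = 0.086). Of 8 genes of endoplasmic reticulum degradation, 5 were called higher and 1 lower in the *iNOS*-/- response. *Sel1l* and *Syvn1*, which form a ligase complex, rose by 0.96 and 0.77 there, and in WT read 0.05 and -0.02. The rise of *Syvn1* was 0.19 and not called under quantile normalization (adjusted p = 0.157) and neqc (adjusted p = 0.132). Among 9 cullin and neddylation genes 3 were called lower in the WT response and 3 higher in the *iNOS*-/- response. *Cul4b* fell by 0.71 in WT (adjusted p = 0.0196), not called without WT unstimulated array 2 or either WT M1 array (-0.52 to -0.77, highest adjusted p = 0.0894). *Rbx1* and *Cul3* rose by 0.65 and 0.52 in *iNOS*-/- cells, values that were -0.05 and 0.02 and not called under quantile normalization and under neqc. In the list of E2s and E2 variants without the *Ube2* prefix, 4 of 7 were called lower in the WT response, and *Tsg101*, the endosomal sorting variant, fell by 0.43 in WT (adjusted p = 0.0259) and rose by 0.52 in *iNOS*-/- cells (adjusted p = 0.00948). The WT call was lost without either WT unstimulated array, WT M1 array 2 or either *iNOS*-/- unstimulated array (-0.35 to -0.49, highest adjusted p = 0.116), and the *iNOS*-/- call without *iNOS*-/- unstimulated array 1 (0.49, adjusted p = 0.0526). Of 7 DNA-damage ligases, *Bard1*, the partner of Brca1, was called higher in the WT response, at least 1.83-fold (adjusted p = 0.0123), and not without WT M1 array 2 (log2 1.98, adjusted p = 0.0643). With a floor of 16 its change was 0. *Aktip*, an E2 variant, rose by 0.85 in WT (adjusted p = 0.0116), not called without WT M1 array 2 (0.76, adjusted p = 0.0605).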

How the data were processed

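Total RNA of 8 macrophage samples was read on Illumina bead arrays, 1 array each; the labels name the MouseRef-8 and the methods the MouseWG-8 chip. The authors deposited a scanner table of the mean bead intensity per probe, not normalized between arrays, with a detection p-value for each; per the labels, their processing used GenomeStudio and limma 3.14.4. The file header states that no background was subtracted, yet 25.2% to 27.2% of intensities are negative, so no further subtraction was made. Following the methods, arrays were scaled by rank-invariant normalization (factors 0.801 to 1.3), values under 1 were set to 1, and log2 was taken (R 4.3.3).

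Probes detected (p under 0.05) on at least 2 arrays, 13868 in all, entered a limma 3.58.1 fit (lmFit, eBayes) of the 4 groups over all 8 arrays, with 5 contrasts and Benjamini-Hochberg adjustment within each. The script was tested on simulated data. All members were described by role; named in full were E2s of ubiquitin-like proteins, *Ube2n*, *Ube2s*, *Ube2t* and, per contrast, the 5 called members with the largest change. Genes of other lists were named where called with the 2 largest changes; further ones were chosen after their values were seen. Members and lists were chosen with earlier results of these data known. Of 29 symbols, 28 matched the RefSeq gene table. Promoter windows came from RefSeq. Values of 1 member are not reported here, though the counts include it. Alternatives were quantile normalization, neqc, a floor of 16, other filters, fewer arrays, a replicate block, a 2-fold minimum and 1 probe per gene. With 2 arrays a group, the number of arrays limits precision.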

Additional observations from a re-analysis of the deposited data

Results flagged for a closer look

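For 18 member probes the response to LPS plus IFN-γ differed between *iNOS*-/- and WT macrophages by limma's interaction term, with adjusted p under 0.05, where 20.8% of all tested probes were called higher and 21.1% lower. Values are the log2 response in *iNOS*-/- cells minus that in WT cells. *Ube2t* was the only one of these with a negative difference, -2.58. The E2s of ubiquitin-like proteins gave 1.89 for *Ube2l6*, 1.37 for *Ube2z*, and 1.33, 1.54 and 0.75 for the 3 probes of *Ube2f*. *Ube2e2* gave 2.03, *Ube2e1* 1.98 and *Ube2d3* 0.74. *Ube2g1* gave 1.05, 1.63 and 0.64 on its 3 probes, the 0.64 not called without any array but WT M1 array 1 (0.48 to 0.71, highest adjusted p = 0.127). *Ube2j1* gave 1.08 and *Ube2k* 0.76. *Ube2a* gave 1.37 and *Ube2b* 0.76. *Ube2q2* gave 0.73 and 1.59 on 2 of its 3 probes, and the 0.73 was not called without WT unstimulated array 2, either WT M1 array, either *iNOS*-/- unstimulated array or *iNOS*-/- M1 array 2 (0.6 to 0.81, highest adjusted p = 0.0959). Under quantile normalization the differences of *Ube2b* and *Ube2k* were 0.35 and 0.22 and were not called (adjusted p = 0.096 and 0.362). Under neqc they were 0.34 and 0.22 and not called (adjusted p = 0.0667 and 0.287). That of *Ube2k* was also not called without WT unstimulated array 2 (0.75) or *iNOS*-/- unstimulated array 2 (0.72). The second *Ube2k* probe read 1.96, not called (adjusted p = 0.0549). Of 9 tested dividing-cell markers, 8 were lower for the same interaction. In the WT response and in unstimulated *iNOS*-/- against WT cells 8 were called higher, while *Ube2t* was not called. Groups of 2 arrays were too small to look for outlying arrays.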

How the results depend on the processing

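Counts of called member probes (12, 16, 10, 20 and 18 for the WT response, the *iNOS*-/- response, the genotypes unstimulated and as M1, and the interaction) stayed within 1.5 times under quantile normalization, neqc, a floor of 16 and other detection filters. Fitting only the arrays of the groups compared gave 5 for the WT response and 13 for the M1 genotypes; the interaction needs all arrays. A 2-fold minimum left 3, 10, 2 and 8 in the first 4 comparisons, and 1 probe per gene left 7 for the WT response. Leaving out 1 array gave 3 to 11, 3 to 9 and 12 to 19 for the WT response and the genotypes unstimulated and as M1. Deviations of arrays with the same replicate number correlated between -0.037 and 0.025. No shared replicate effect was seen, but with so few arrays a group this cannot exclude pairing. With the replicate block the counts were 8, 17, 7, 19 and 16.

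Of 175 member probe results, 76 were called, 38 of these under every alternative that gave a value; 38 were lost in at least 1, and 41 uncalled ones were called in at least 1. Quantile normalization moved the median change of all probes in the *iNOS*-/- response from 0.04 to -0.13. Both *Ube2l3* probes turned there to -0.47 and -0.35 (neqc -0.47 and -0.34), its M1 difference to -0.38 (neqc -0.38), *Rbx1* in the *iNOS*-/- response to -0.05 (neqc -0.05) and the M1 difference of *Syvn1* to -0.07 (neqc -0.07). The cause was not tested. Probes near background (*Ube2g2*, *Ube2t*, *Ube2e1*, *Ube2s*, *Ube2r2*) are limited by their signal.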
